A study of Mus musculus with 15 samples.

Results

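Pipox, Ehf, Tox, Tox2, Nxpe2 and Nuggc are 6 genes that are rarely discussed among germinal centre markers and that were picked out here because earlier values of these same libraries showed them high in germinal centre (GC) B cells and near absent in naive or in cultured, activated B cells. They are 6 of the 54838 genes in the table. Because the levels in GC, activated and naive libraries chose the genes, those levels are given below as a description with no test, and tests are kept for what the choice did not use: differences among the stimuli, among the replicate letters and among other genes of the same pathways. For all of them but Nxpe2, every GC library lay above every other library. Nxpe2 went against the description, since all 3 naive libraries carried it.

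The cells came from spleens of 3-month-old wild-type male mice, taken on day 9 after immunisation with sheep red blood cells, an antigen that drives germinal centres. GC B cells and naive B cells were sorted after enrichment of B220+ cells, and a portion of the naive B cells was kept for 5 days in culture, in a medium made for embryonic stem cells, under 3 stimuli. The activated groups are CD40 (5 µg/ml of anti-CD40 with 80 ng/ml of mouse IL-4), CpG (2 µM of CpG oligonucleotide) and LPS (25 µg/ml of lipopolysaccharide), and it is unclear from the labels if the CpG and LPS cultures received IL-4 too. There are 3 libraries in each of the 5 groups, lettered A, B and C, so 3 GC, 9 activated and 3 naive libraries in all. All mice were wild type and immunised, so the naive cells are those of an immunised animal and the activated cells are a culture of bulk naive cells. How the letters relate to animals, and if cells of several mice were mixed, is not in the labels. The p-values thus reflect only how much libraries varied, which may be technical variation. GC and naive libraries are treated as fresh cells on the strength of their sample labels, although the series text can be read otherwise.

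A germinal centre is the site in a lymphoid follicle where B cells that met antigen divide, mutate their antibody genes and compete for help from T cells. DNA repair enzymes take part in that mutation. The 6 genes come from different families. Nuggc encodes a nuclear GTPase also called SLIP-GC, known for limiting DNA breaks in germinal centre B cells. Tox and Tox2 encode DNA-binding proteins of the HMG-box class that are best known from T cells, in thymocyte development, exhausted T cells and follicular helper T cells. Ehf encodes a transcription factor of the ETS family best known from epithelia. Pipox encodes a peroxisomal oxidase of pipecolate and sarcosine, which stand in lysine and glycine metabolism and are handled mainly in liver and kidney. Nxpe2 encodes a member of the neurexophilin and PC-esterase domain family whose role in B cells is not established.

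Levels are CPM, a gene's counts scaled to a common library total after edgeR's TMM adjustment. Totals ran from 25397624 to 36272197 counts per library. Naive A and naive B stood apart, with 13920 and 11523 genes detected, against 16314 to 19320 in the other 13 libraries, naive C among them with 18866. Genes with 1 to 10 counts made up 3.43% of detected genes in naive A and 4.55% in naive B, against 12.0 to 25.5% elsewhere, so a 0 in those libraries says less about a scarce gene than a 0 in naive C, and values against naive C alone are added where they matter. In every library 76.3 to 82.3% of the counts of 1 to 10 were even numbers. Counts near 0 are therefore not independent events, and the bounds below, which cover counting error only, may be too tight. In bulk RNA fewer cells of a type and less RNA per cell cannot be told apart.

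The marker lists gave each group the identity of its label. Summed over 10 GC markers, the libraries held 3682 to 3950 CPM in GC, 908 to 1772 in activated and 137 to 181 in naive cells, and 9 naive follicular markers summed to 322 to 453 CPM in GC, 702 to 1755 in activated and 7353 to 9134 in naive cells. The 7 markers of all B cells summed to 8059 to 9031 CPM in GC, 4685 to 6031 in activated and 10694 to 13512 in naive libraries. Myeloid markers summed to at most 16.9, 48.4 and 31.3 CPM in GC, activated and naive libraries, and NK and innate lymphoid markers to at most 0.891, 10.5 and 26.2 CPM. The 8 follicular dendritic and stromal markers summed to 37.4 to 46.1 CPM in GC, 8.50 to 25.3 in activated and 274 to 357 in naive libraries, with Cxcl13 and Col3a1 at 0 counts in all of them. In naive libraries Madcam1, Col1a1 and Clu were at 0 too, so 5 of the 8 had no count. The naive sum rests on the other 3, Pdgfrb, Pecam1 and Cdh5.

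All 6 genes lie on the mouse genome build GRCm38 as follows, and each is annotated as protein coding. Pipox (ENSMUSG00000017453) spans chr11:77880615-77894096 on the minus strand. Ehf (ENSMUSG00000012350) spans chr2:103263433-103303278 on the minus strand, and Tox2 (ENSMUSG00000074607) lies on the plus strand of the same chromosome at chr2:163203125-163324170. Tox (ENSMUSG00000041272) spans chr4:6686353-6991557 on the minus strand. Nxpe2 (ENSMUSG00000032028) spans chr9:48318006-48353454 on the minus strand, inside the span of its relative Nxpe4 on the other strand. Nuggc (ENSMUSG00000061356) spans chr14:65598546-65648531 on the plus strand. Only Ehf and Tox2 share a chromosome.

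Promoter windows, the 250 bases before an annotated start, were found in RefSeq (GRCm38.p6) for Pipox, Nxpe2 and Tox2. Both strands were searched for 9 motifs. For B cell and interleukin factors these were the octamer ATGCAAAT and the BCL6 or STAT element TTCNNNGAA, with the composite ETS and IRF element and the NF-kB element. The core of ETS sites was searched as CCGGAAG and an E-box of basic helix-loop-helix factors as CAGGTG. The site of FOXO factors was searched as TGTTTAC, and the general promoter elements were the CCAAT box and the TATA box, which was read as TATAAA. The motifs marked below overlap no other. The window of Pipox held the octamer, the letters read by the OCT factors of B cells, on the reverse strand, 195 to 188 bases before the RefSeq start. The octamer stood in 1.60% of all 32851 promoter windows. Tox2 has 5 annotated starts with a window each, and the windows of 2 neighbouring starts held the same TATA box, 31 to 26 bases before the first of them. TATAAA stood in 12.4% of all windows. The CCAAT box stood in 3 of the 5 Tox2 windows and in 33.8% of all windows, and the E-box in 1 of the 5 and in 17.2% of all. Nxpe2, whose levels set it apart below, held none of the 9 in its window at chr9:48340899-48341148. The 30 bases around the first 2 motifs, and the window of Nxpe2, are given here 5′ to 3′ on the gene's strand, with the motif in capitals.
Pipox, chr11:77894049-77894078, minus strand: gggaaggcgccATTTGCATgacaataattg
Tox2, chr2:163225410-163225439, plus strand: cgtcggcaggctTATAAAgctgctatttct
Nxpe2, chr9:48340899-48341148, minus strand: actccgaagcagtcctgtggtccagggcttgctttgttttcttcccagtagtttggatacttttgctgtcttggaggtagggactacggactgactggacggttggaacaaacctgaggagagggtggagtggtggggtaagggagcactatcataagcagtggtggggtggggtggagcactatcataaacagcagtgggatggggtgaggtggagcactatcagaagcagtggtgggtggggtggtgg
Those letters are a description of the windows only. In GENCODE the first exon of Pipox begins upstream of the RefSeq start and takes in 224 of the 250 bases, the octamer included, and the first exon of the transcript Tox2-201 takes in 90 bases of the Tox2 window, the TATA box included, so the starts themselves differ between annotations. Of the Nxpe2 window, 0 bases lie in an annotated exon. The window lies inside the GENCODE span of Nxpe2, which on the minus strand begins at 48353454, so a start upstream of the window was not searched.

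Nuggc was the most abundant of the 6 genes. Its level was 609, 534 and 670 CPM in GC libraries A, B and C. In activated libraries it was 0.248, 0 and 5.73 CPM with CD40, 0 with CpG A, 0.0739 with CpG B and 2.41 with CpG C, and 0.330, 0 and 1.97 CPM with LPS in letters A, B and C. Naive libraries A, B and C held 0.824, 0 and 3.02 CPM. The lowest GC library, at 534 CPM, stood far above the highest of the others, CD40 C at 5.73 CPM. The mean was 604 ± 67.7 CPM in GC (SD, n = 3), 1.20 ± 1.93 CPM in activated (n = 9) and 1.28 ± 1.56 CPM in naive cells (n = 3). The ratio of means was 506 for GC over activated and 472 for GC over naive cells, or 200 over naive C alone.

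Tox and Tox2 were both well expressed in GC cells and at or near 0 elsewhere. Tox was at 36.2, 35.9 and 35.3 CPM in GC libraries, the tightest replicate agreement of the 6 genes at 35.8 ± 0.429 CPM. It had counts in 2 of 9 activated libraries, each of letter C (32 counts with CD40 and 6 with CpG), and in naive A alone among naive libraries (22 counts, 0.604 CPM). The ratio of means was 226 for GC over activated and 178 for GC over naive cells. Over the naive C library, where Tox had no count, GC was at least 344-fold higher. Tox2 was at 27.3, 35.5 and 26.4 CPM in GC libraries, with letter B highest. It had 8 counts in LPS C and none in the other 8 activated libraries, while naive libraries A, B and C held 50, 0 and 2 counts (1.37, 0 and 0.0693 CPM). Tox2 averaged 29.7 ± 5.01 CPM in GC, 0.0246 ± 0.0739 CPM in activated and 0.481 ± 0.774 CPM in naive cells. The ratio of means was 1205 for GC over activated and 61.7 for GC over naive cells, whose counts lay mostly in naive A. Over naive C, with 2 counts, the ratio was 428 (95% exact Poisson interval from the lower count, 119 to 3536).

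The relatives of Tox and Tox2 did not share that pattern. Tox3 had no count in GC or naive cells and 26 counts over the 9 activated libraries, all in letter C. Tox4, a widely expressed relative, stood at 91.6 ± 18.3 CPM in GC, 107 ± 6.86 CPM in activated and 88.6 ± 17.5 CPM in naive cells, with a log2 fold change of 0.05 ± 0.17 for GC over naive (SE; edgeR adjusted p = 0.872). The longest run of coding bases that Tox and Tox2 have in common is 20 bases, within coding sequences of 1578 and 1641 bases, and it is shown because it bears on whether reads of the pair can be mixed up.
Tox, chr4:6722292-6722311, minus strand, and Tox2, chr2:163315849-163315868, plus strand: aagaagaagaagaagaagga
The longest run of Tox in common with Tox3 was 24 bases and with Tox4 17 bases. The antisense gene Gm11802 overlaps Tox and has 260 exon bases in common with it, but its own level was at most 0.164 CPM in GC and 0 elsewhere. Whether the counting used strand is not given in the sources used here, so reads of Tox and Gm11802 over those bases cannot be told apart.

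T cells are known to express Tox and Tox2, so markers of T cells stand beside them. Its 20 markers summed to 113 to 147 CPM in GC, 429 to 894 CPM in activated and 189 to 302 CPM in naive libraries, with 16 of 20 having a count in GC. Cd3e, Cd8a, Il21 and Bcl11b were at 0 in all 3 GC libraries, and Cd3d reached at most 0.382 CPM and Cd4 at most 0.255 CPM there. These sums rest mostly on single genes. Cd2 alone averaged 118 ± 17.5 CPM in GC, 16.3 ± 5.61 CPM in activated and 220 ± 61.1 CPM in naive libraries, and Thy1 at up to 0.382 CPM in GC, 389 to 801 CPM in activated and up to 0.277 CPM in naive libraries. Among markers that were higher in GC than in naive cells, Cd28 averaged 1.35 ± 0.573 CPM in GC, 1.41 ± 0.927 CPM in activated and 0.0693 ± 0.120 CPM in naive cells, and Pdcd1 averaged 0.796 ± 0.531 CPM in GC and 2.10 ± 1.56 CPM in activated cells and was at most 0.347 CPM in naive cells. In naive A, the library with most of the naive counts of both genes, Cd3d had 88, Trbc2 115, Trac 72 and Cd4 54 counts, and the GC gene Rgs13 had 74 counts. Cd3e, Cd28, Icos, Pdcd1, Il21 and Bcl11b had none in naive A, and Cd3g had 72 counts in naive A and 102 in naive B, where Tox and Tox2 had none. The part of such cells in the 22 Tox and 50 Tox2 counts of naive A was not tested.

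Ehf was detected in GC cells and in 1 letter of the cultures. Its level was 33.3, 32.1 and 37.0 CPM in GC libraries A, B and C. All 3 naive libraries and the 6 activated libraries of letters A and C had no count. In letter B it had 24 counts with CD40, 24 with CpG and 32 with LPS (0.764, 0.887 and 1.30 CPM). GC cells averaged 34.1 ± 2.59 CPM and activated cells 0.328 ± 0.511 CPM, a ratio of 104. Against the floor of 3 counts over the group, Ehf was at least 1077-fold higher in GC than in naive cells, and at least 328-fold higher than in naive C alone. Ehf neighbours Elf5, another epithelial ETS gene, which was at 0.266 ± 0.190 CPM in GC and at most 0.0693 CPM in any other library. Elf3, also epithelial, had 4 counts in GC and none elsewhere. The 12 epithelial markers summed to 3.43 to 6.49 CPM in GC, 6.79 to 21.4 CPM in activated and 1.54 to 6.73 CPM in naive libraries, with 8 of the 12 at 0 in GC, Krt8, Krt19, Esrp1 and Grhl2 among them. Krt18, a keratin of simple epithelia, was also highest in GC, at 1.09 ± 0.701 CPM in GC, 0.0638 ± 0.136 CPM in activated and 0 in naive cells. In culture it did not follow Ehf. Its activated counts lay in letter C, 6 with CpG and 14 with LPS, and it had none in letter B. The part of epithelial cells in the level of Ehf was not tested.

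Pipox was the only gene besides Ehf with no count in any naive library. Its level was 35.1, 41.5 and 38.6 CPM in GC libraries A, B and C. Activated libraries held 8, 4 and 4 counts in letter A and 0, 6 and 0 in letter B with CD40, CpG and LPS, and 22, 23 and 21 counts in letter C, which comes to at most 0.851 CPM. GC cells averaged 38.4 ± 3.19 CPM and activated cells 0.320 ± 0.315 CPM, a ratio of 120. Pipox was at least 1211-fold higher in GC than in naive cells against the floor of 3 counts, and at least 369-fold higher than in naive C. The 10 markers of liver and kidney, the tissues best known for this enzyme, summed to 3.21 to 4.53 CPM in GC, 0.264 to 2.01 CPM in activated and 0 to 3.24 CPM in naive libraries, with 8 of the 10 at 0 in all 15 libraries, Alb, Apoa1, Miox and Umod among them. Slc34a1, a phosphate transporter of the kidney tubule, made up most of the GC sum, at 3.08 ± 0.914 CPM in GC, 0.0724 ± 0.0881 CPM in activated and 1.22 ± 1.76 CPM in naive cells. The part of such cells in the level of Pipox was not tested.

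Nxpe2 had a pattern of its own. Its level was 53.3, 43.6 and 59.8 CPM in GC libraries and 32.0, 9.79 and 50.2 CPM in naive libraries A, B and C. The naive C library thus lay above the lowest GC library, and the ranges overlapped. Of the 9 activated libraries, 6 had no count, and CD40 B, CD40 C and CpG C had 2, 16 and 4 counts. Means were 52.2 ± 8.17 CPM in GC, 0.0896 ± 0.203 CPM in activated and 30.7 ± 20.3 CPM in naive cells. The ratio of means was 583 for GC over activated but 1.70 for GC over naive cells, and 1.04 over naive C. The data therefore go against calling Nxpe2 restricted to the germinal centre: it was present in both kinds of cells taken from the spleen and near 0 in all 9 cultures. Among 9513 genes with a GC mean of at least 5 CPM, 7644 had a naive mean of at least 50% of the GC mean, and Nxpe2 was the only 1 of these with an activated mean of at most 1% of it, limits that were chosen after its values were seen.

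Of the other family members, Nxpe4 averaged 2.44 ± 0.209 CPM in GC, 0.0699 ± 0.153 CPM in activated and 4.22 ± 4.64 CPM in naive cells, where libraries A, B and C held 126, 0 and 265 counts. Nxpe4 was higher in GC than in activated cells (log2 fold change 6.12 ± 1.49 SE, edgeR adjusted p = 0.00582) and was not called between GC and naive cells (-0.79 ± 1.73, edgeR adjusted p = 0.775). Although the genes overlap on opposite strands, they have 0 exon bases in common in GENCODE. Nxpe3, on another chromosome, was lower in GC (54.5 ± 5.45 CPM) than in naive cells (128 ± 21.1 CPM; log2 fold change -1.23 ± 0.17 SE, edgeR adjusted p = 6.99e-05) and stood at 66.9 ± 8.30 CPM in activated cells. Nxpe5 had 7 counts in the naive libraries and none elsewhere. Nxpe1 was not analysed here.

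**Figure D1:**
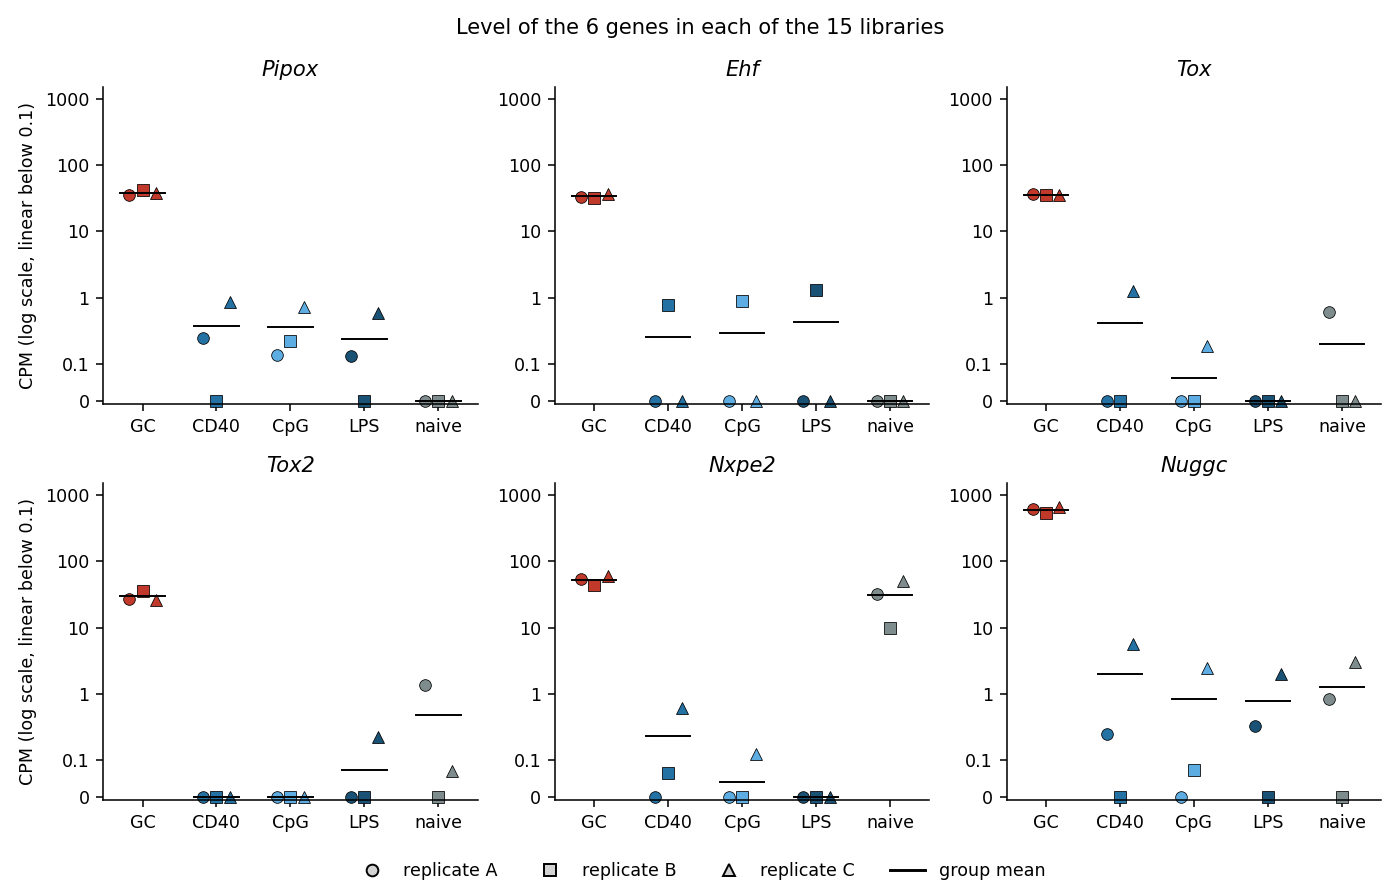
CPM of Pipox, Ehf, Tox, Tox2, Nxpe2 and Nuggc in each of the 15 libraries, on a log axis that is linear below 0.1, with GC at the left, the activated groups CD40, CpG and LPS next and naive at the right. Points are libraries, shaped by replicate letter, and bars are group means. GC libraries lie above all others for 5 genes, while for Nxpe2 the naive libraries reach 50.2 CPM.

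In the comparison of libraries, every GC library lay above every naive library for 5 of the 6 genes, all but Nxpe2, and above every activated library for all 6. The same held for 25.3% and 21.2% of the 17144 genes tested. Since these levels chose the genes, nothing is read from the counts. Per kilobase of annotated exon, Nuggc led in GC cells with 213 ± 23.9 CPM, and Pipox (15.5 ± 1.29), Nxpe2 (12.7 ± 1.99), Tox2 (8.73 ± 1.47), Ehf (6.12 ± 0.464) and Tox (4.70 ± 0.0564) came after it. Pipox and Nxpe2 overlapped in this order, and the others did not overlap with their neighbours.

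The GC share, the GC mean as a percentage of the sum of the 5 group means, puts these genes beside the known GC markers. It was 99.2% for Nuggc, 98.2% for Tox2, 98.1% for Tox, 97.6% for Pipox and 97.2% for Ehf, which ranked 5, 9, 10, 12 and 16 among the 9513 genes with a GC mean of at least 5 CPM. A share of 95% or more was found for 28 genes and of 99% or more for 5. Rgs13 and Gcsam, GC genes that act on cell movement and signalling, had 99.8% and 98.6%. S1pr2, the receptor that confines GC B cells, had 94.2%, Mybl1 93.9% and Mef2b 87.5%. Bcl6, the master regulator of the state, had 67.6%, and Nxpe2 had 62.8% at rank 153. The median share of all ranked genes was 20.5%. By replicate letter the share ran from 94.7 to 99.5% for Pipox, 91.6 to 100% for Ehf, 96.1 to 100% for Tox, 95.2 to 100% for Tox2, 98.1 to 99.99% for Nuggc and 54.0 to 81.6% for Nxpe2.

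**Figure D2:**
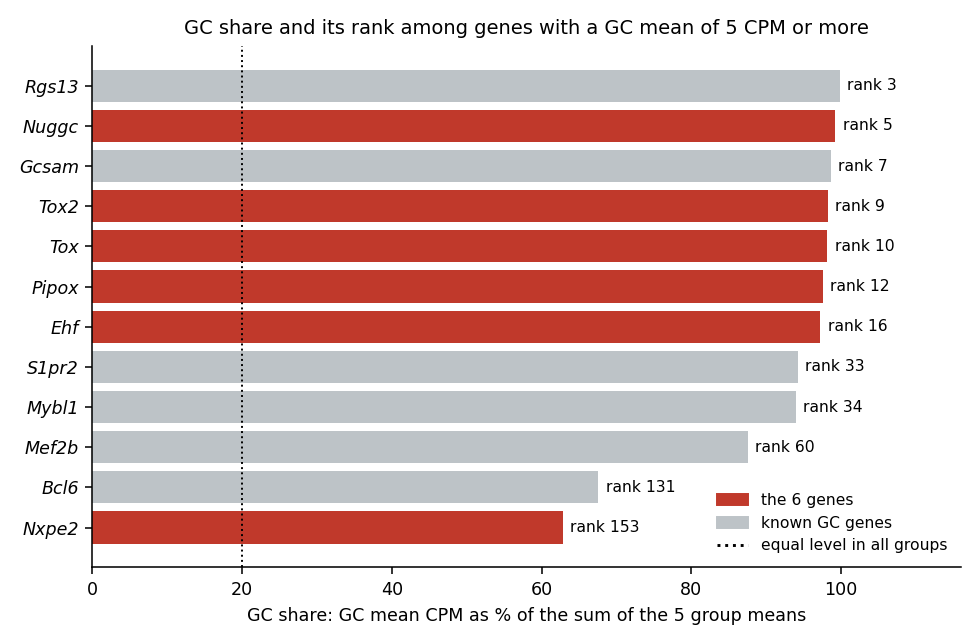
GC share, the GC mean CPM as a percentage of the sum of the 5 group means, for the 6 genes and for 6 known GC genes, with the rank among 9513 genes with a GC mean of at least 5 CPM beside each bar. The dotted line marks equal levels in all 5 groups. Nuggc, Tox2, Tox, Pipox and Ehf exceed 97%, above S1pr2, Mybl1, Mef2b and Bcl6.

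**Figure D3:**
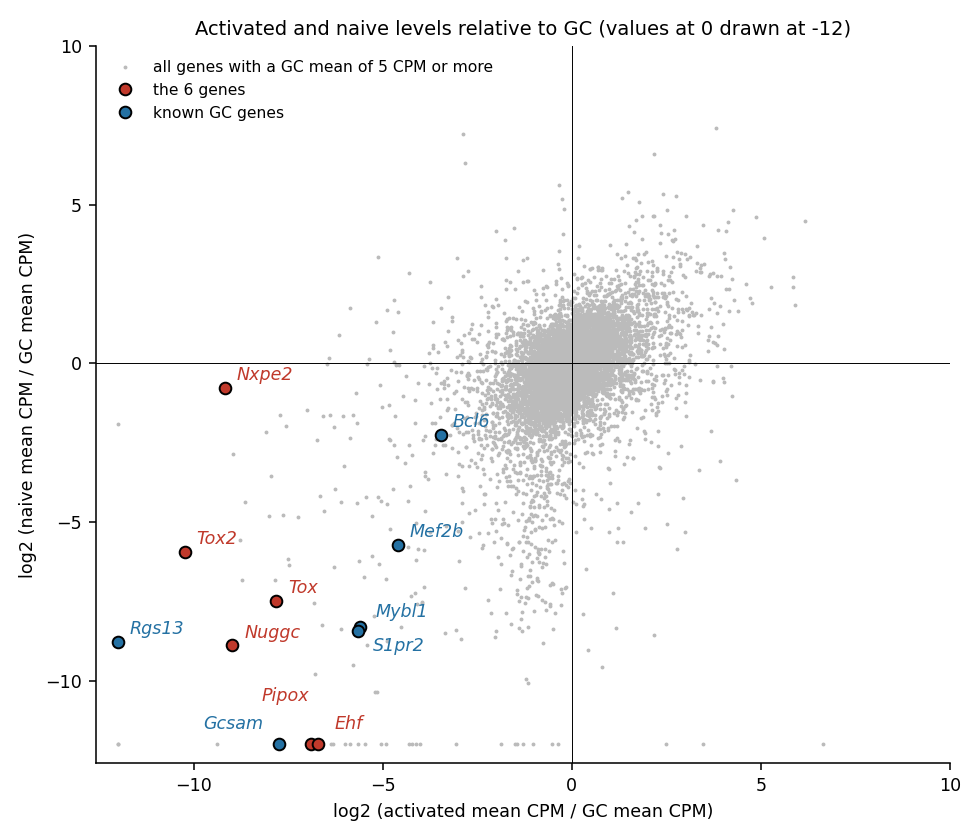
Mean level in activated cells (x axis) and in naive cells (y axis) relative to GC cells, on a log2 scale, for the 9513 genes with a GC mean of at least 5 CPM. Each point is a gene, and values at 0 are drawn at the low end of the axis. Nuggc, Tox, Tox2, Pipox and Ehf lie at the lower left, low in both, while Nxpe2 is low in activated cells only.

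What remained of the 6 genes in culture did not separate the stimuli named in the sample titles. Over all genes tested, 0% were called between these stimuli, while 23.4 to 34.8% were called between letters. Whether titles and letters mark stimuli and replicates as named was not tested. The levels of the CD40, CpG and LPS groups were 0.366 ± 0.438, 0.356 ± 0.311 and 0.238 ± 0.305 CPM for Pipox, and 1.99 ± 3.24, 0.829 ± 1.37 and 0.766 ± 1.05 CPM for Nuggc (SD, n = 3 each). The spread within a stimulus was as large as the levels. In 3 pairwise comparisons no gene of the 6 was called by edgeR (adjusted p = 1 in each), and 0% of 17144 genes were called in each pair. At an unadjusted p under 0.05 edgeR had 92 genes for CpG against CD40, 115 for LPS against CD40 and 71 for LPS against CpG, with Nxpe2 the only 1 of the 6 among them (LPS against CD40, edgeR unadjusted p = 0.0288). DESeq2 called 1 gene for LPS against CpG, none of the 6, and 0 in the other pairs, and edgeR with the letter as a replicate block called 0. For Pipox the log2 fold change was -0.52 ± 1.18 for LPS against CD40 and for Nuggc -1.23 ± 1.63 (SE), so the errors span changes of several fold. Without CD40 C, in the same fit with no replicate block, these values were 0.98 for Pipox and 2.67 for Nuggc. That left LPS C without the CD40 library of its letter, so the sign change cannot be laid to CD40 C alone. With the letter as a replicate block and all libraries kept, the values were -0.57 for Pipox and -0.98 for Nuggc.

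Between replicate letters edgeR called 2 of the genes, though both passed the filter through the letter in which they were high. The 3 libraries of a letter may share a source, so these p-values measure the spread between cultures. Among the 9 activated libraries, Ehf was found in letter B alone, at 0.983 ± 0.279 CPM, with 80 counts in B and none in A or C. Against the floor of 3 counts this was at least 30.2-fold higher than in letter A and at least 30.9-fold higher than in letter C, and edgeR called both (adjusted p = 0.00581 and 0.00501, with a term for stimulus). DESeq2 did not call either (adjusted p = 0.147 and 0.135). Over 13 alternatives the adjusted p of Ehf ran from 0.00237 to 0.147 for A against B and from 0.00207 to 0.135 for B against C. Leaving out the CpG or LPS library of letter B ended both calls (edgeR adjusted p 0.0676 to 0.0832), and leaving out that of CD40 ended the call against A (edgeR adjusted p = 0.0588).

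Nuggc was highest in letter C in every titled stimulus. Letter C held 148, 78 and 71 counts with CD40, CpG and LPS, against 8, 0 and 10 counts in letter A and 0, 2 and 0 counts in letter B. The letter C mean of 3.37 ± 2.05 CPM was 17.5 times that of letter A (edgeR adjusted p = 0.00102), and C was also called over B (edgeR adjusted p = 2.48e-05). Over 13 alternatives the adjusted p of Nuggc ran from 3e-06 to 0.0685 for A against C, the highest with DESeq2, and from 8.13e-11 to 0.00152 for B against C. Letters A and B were not called apart (edgeR adjusted p = 0.111), though they were without CpG A (edgeR adjusted p = 0.0235) or CpG B (edgeR adjusted p = 0.0148).

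Pipox had 66 counts in letter C, 16 in letter A and 6 in letter B, a mean in C that was 4.16 times that in A and 9.67 times that in B. These differences were not called by edgeR (adjusted p = 0.314 and 0.0699). For C against B, DESeq2 (adjusted p = 0.0137) and edgeR without CpG B (adjusted p = 0.0397) made the call. Tox, Tox2 and Nxpe2 had too few counts to pass the filter, and 66 of their 68 activated counts fell in letter C. Of all 15727 genes tested, 31.1% were called between letters A and B, 23.4% between A and C and 34.8% between B and C, so a difference between letters is common in these libraries. Ehf, Pipox and Nuggc passed the filter through the letter in which they were high, and the 4 calls are no measure of the 6 genes as a group.

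Plasma cell genes moved with the same letter as Nuggc and Pipox, but 23.4 to 34.8% of all genes were called between letters. The GC marker Mef2b was also highest in letter C, at 33.1 ± 9.13 CPM, against 18.2 ± 1.62 in A and 5.95 ± 1.41 in B. Bcl6 was lowest in letter C, at 21.4 ± 2.53 CPM, against 45.6 ± 5.87 in A and 39.9 ± 1.64 in B. The 8 plasma cell markers summed to 4873 to 6776 CPM in letter C, 2875 to 3004 CPM in letter A and 2030 to 2163 CPM in letter B, beside 1946 to 2434 CPM in GC and 473 to 528 CPM in naive cells. Jchain, the joining chain of secreted antibody, was at 2171 ± 654 CPM in letter C, 89.8 ± 22.3 CPM in A and 17.9 ± 0.990 CPM in B. It was also high in GC libraries, at 1450 ± 166 CPM. Prdm1, the plasma cell regulator, was at 71.6 ± 11.8, 10.2 ± 1.72 and 3.66 ± 0.981 CPM in letters C, A and B, and at 5.85 ± 3.81 CPM in GC. The T cell list summed to 864 to 894 CPM in letter B, of which Thy1 made up 787 to 801 CPM, while Cd4 and Trbc2 had no count there. The part of cells that express these markers in the letter differences of Ehf, Nuggc or Pipox was not tested.

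**Figure D4:**
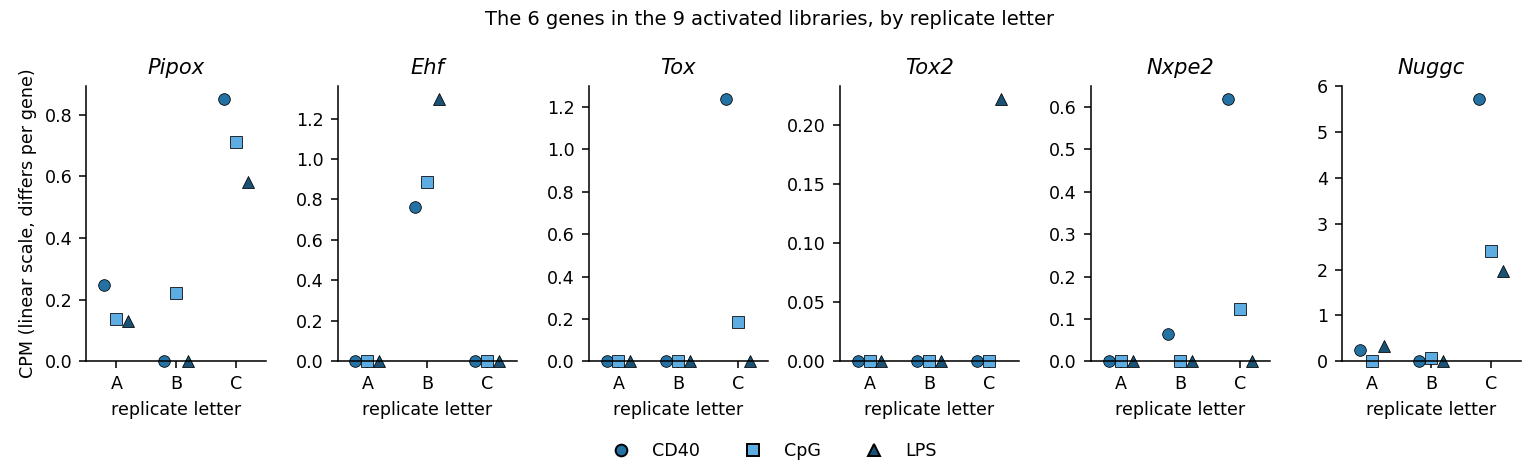
CPM of the 6 genes in the 9 activated libraries, grouped by replicate letter, on linear axes that differ between genes. Points are libraries, with the shape giving the stimulus. Ehf is at 0.764 to 1.30 CPM in letter B and 0 in A and C, and Nuggc reaches 5.73 CPM in letter C.

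Other genes of the pathways in which the 6 take part were counted over 6 lists of 115 genes, of which 98 were tested. Relative to naive cells 26 of the 98 (26.5%) were higher in GC and 23 (23.5%) lower, where the shares over all genes tested were 17.9% and 16.5%. Relative to activated cells 31 (31.6%) were higher and 20 (20.4%) lower, beside 17.7% and 19.4% of all genes tested. The counts of lower genes were the less stable, at 8 to 24 against naive cells and 13 to 30 against activated cells when 1 library was left out (8 and 13 without GC A). The comparisons have the GC libraries in common. The median log2 fold change of the 98 genes was 0.07 for GC over naive and 0.06 for GC over activated, beside 0.00 and -0.04 for all genes tested. The lists, like the 6 genes, were drawn up with earlier results of these data known.

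Genes of antibody gene mutation and DNA repair, the setting of Nuggc, were higher in GC more often than lower. Of 19 genes, 11 were higher in GC than in naive cells and 1 was lower (57.9% and 5.26%, beside 17.9% and 16.5% of all genes tested). Against activated cells 10 were higher and 0 lower (52.6% and 0%, beside 17.7% and 19.4%). The median log2 fold changes were 1.10 and 0.74. Polh, a polymerase that copies past DNA lesions, rose to 169 ± 20.5 CPM in GC against 13.4 ± 1.96 CPM in naive cells (3.65 ± 0.18, edgeR adjusted p = 2.81e-09). Exo1, an exonuclease of mismatch repair, was at 41.4 ± 3.76 and 2.17 ± 1.96 CPM in GC and naive cells (4.25 ± 0.89, edgeR adjusted p = 0.00254), and Pcna, the replication clamp, at 558 ± 43.7 and 135 ± 38.2 CPM (2.04 ± 0.21, edgeR adjusted p = 4.10e-06). Supt5, a transcription elongation factor, was the 1 gene called lower in GC (182 ± 13.7 CPM against 259 ± 47.9 CPM in naive cells, log2 fold change -0.51 ± 0.14, edgeR adjusted p = 0.0120). With 1 library left out, 0 to 2 genes of the list were called lower against naive cells, with 0 without any 1 of the GC libraries.

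In the list of the TOX family and other HMG-box genes, 13 of 14 were tested. Of these, 4 were higher and 4 lower against naive cells, with the same numbers against activated cells. That is 30.8% each way, beside 17.9% and 16.5% of all genes tested against naive cells and 17.7% and 19.4% against activated cells. Without GC A or GC C 1 was lower against naive cells, and without GC B 2 were. Hmgb2, an abundant chromatin protein of dividing cells, was at 1852 ± 117 CPM in GC and 61.5 ± 12.9 CPM in naive cells (log2 fold change 4.91 ± 0.21 SE, edgeR adjusted p = 7.40e-10). Hmgb3 was at 56.1 ± 7.53 and 4.57 ± 2.03 CPM in GC and naive cells (3.61 ± 0.39, edgeR adjusted p = 5.58e-06). Tcf7, a T cell factor, fell to 0.136 ± 0.119 CPM in GC against 2.07 ± 1.77 CPM in naive cells (edgeR adjusted p = 0.0202), and Sox4 had no count in GC against 1.22 ± 1.24 CPM in naive cells (edgeR adjusted p = 0.0360). Both genes were thus low in naive cells too. In activated cells Tcf7 averaged 10.8 ± 7.47 CPM and Sox4 1.13 ± 1.32 CPM.

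The other ETS factors, the family of Ehf, had more members called lower than higher against naive cells with all libraries kept, a count that was not stable. Of 19 tested, 2 were higher and 9 lower (10.5% and 47.4%, beside 17.9% and 16.5% of all genes tested). Against activated cells 7 were higher and 6 lower (36.8% and 31.6%, beside 17.7% and 19.4%). The median log2 fold changes were -0.47 and 0.06. The count of 9 was 3 without GC A or GC B, 4 without GC C and 5 without naive C. The count of higher genes was 2 to 3 with 1 library left out. Etv3, a repressor, was at 33.7 ± 3.21 CPM in GC and 117 ± 18.6 CPM in naive cells (log2 fold change -1.79 ± 0.25 SE, edgeR adjusted p = 5.76e-05). Spic had no count in GC against 5.72 ± 2.58 CPM in naive cells (edgeR adjusted p = 0.00879). Erg had none in GC against 0.182 ± 0.257 CPM in naive cells (edgeR adjusted p = 0.0201). It was thus at or near 0 in both, and stood at 6.74 ± 2.51 CPM in activated cells. Etv4 was at 1.13 ± 0.198 CPM in GC and had no count in naive cells (edgeR adjusted p = 0.000422).

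The metabolic relatives of Pipox were counted over a pair of lists. Of 11 tested genes of lysine, pipecolate and sarcosine breakdown, 3 were higher and 2 lower against naive cells. These are 27.3% and 18.2%, beside 17.9% and 16.5% of all genes tested. Against activated cells 1 was higher and 4 lower (9.09% and 36.4%, beside 17.7% and 19.4%). With 1 library left out, 0 to 3 were lower against naive cells and 1 to 6 against activated cells, with 0 against naive cells without GC A or GC B. Shmt1 and Shmt2, which interconvert serine and glycine, were at 37.9 ± 4.45 and 203 ± 4.47 CPM in GC and at 11.2 ± 7.86 and 84.0 ± 16.8 CPM in naive cells (log2 fold changes 1.76 ± 0.39 and 1.27 ± 0.15 SE, edgeR adjusted p = 0.00276 and 1.06e-05). Gnmt, which makes sarcosine, was at 0.970 ± 0.534 CPM in GC and 5.24 ± 4.86 CPM in naive cells (edgeR adjusted p = 0.0418). Of 34 tested peroxisome genes, 6 were higher and 6 lower than in naive cells (17.65% each), which is near the 17.9% and 16.5% of all genes tested. Against activated cells 8 were higher and 6 lower (23.53% and 17.65%, beside 17.7% and 19.4%). Without naive C 10 were higher and without GC A 3 were lower against naive cells, and without naive B 11 were lower against activated cells. Catalase (Cat) was at 399 ± 38.1 and 134 ± 64.1 CPM in GC and naive cells (1.57 ± 0.33, edgeR adjusted p = 0.00185) and Ehhadh, of peroxisomal fat oxidation, at 27.0 ± 4.03 and 9.17 ± 3.79 CPM (1.56 ± 0.34, edgeR adjusted p = 0.00252). Pex5, the import receptor that carries proteins such as Pipox into peroxisomes, fell to 18.4 ± 1.55 CPM in GC against 42.1 ± 11.9 CPM in naive cells (-1.19 ± 0.25, edgeR adjusted p = 0.00196). Dao, another peroxisomal oxidase of amino acids, had no count in GC against 1.86 ± 3.16 CPM in naive cells (edgeR adjusted p = 0.0335). With an SD that far above the mean, most of the naive level of Dao lay in 1 library.

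**Figure D5:**
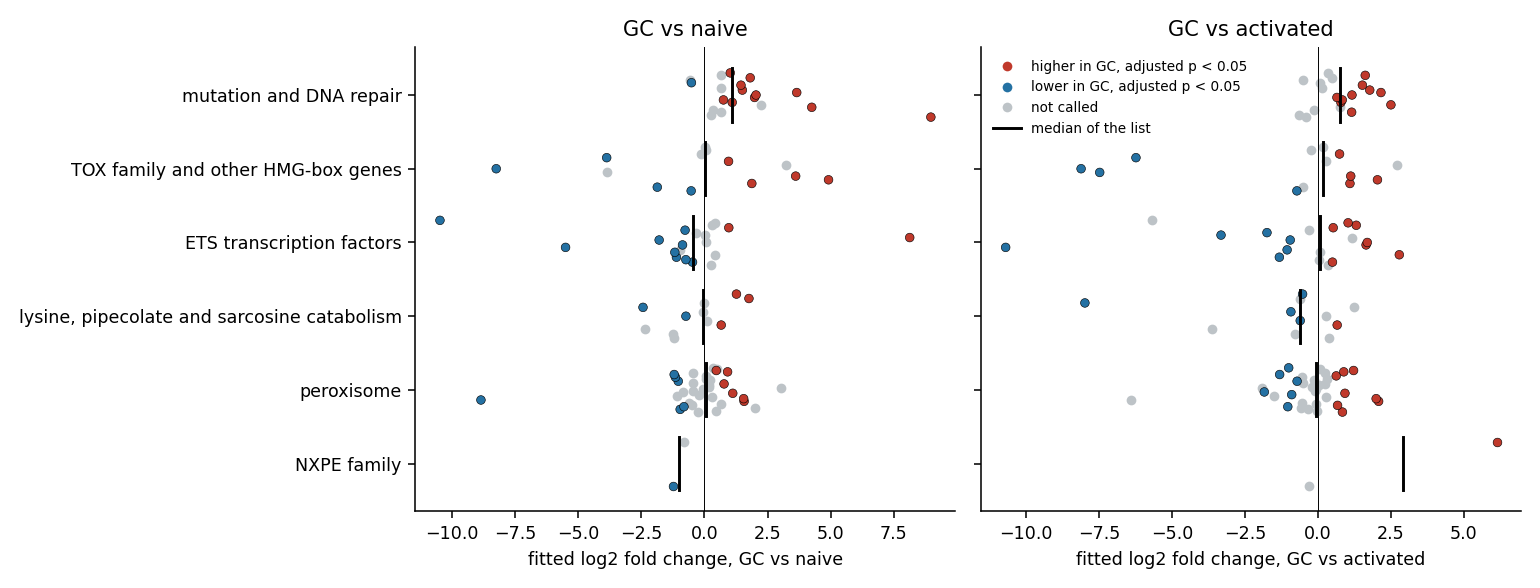
Fitted log2 fold change of the 98 tested genes of 6 related lists, for GC against naive (left panel) and GC against activated cells (right panel). Each point is a gene, coloured where its edgeR adjusted p was under 0.05, and black bars are list medians. The mutation and repair list has a median of 1.10 against naive cells and the ETS list -0.47. The far points below -5 are genes with no or few counts in GC, whose fitted size is not a bound. The fitted size of Etv4 in the left panel, 8.13, is no bound either, since naive cells had no count.

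Across the 15 libraries, the gene most like Tox2 in log2 CPM was Rgs13, the GC regulator of G protein signalling (Pearson r = 0.99), and 3425401B19Rik and Cul4b came next (r = 0.97 each). The nearest to Pipox were Nmral1 (0.98), Psip1 (0.97) and Ackr4 (0.97), a scavenging chemokine receptor at 41.0 ± 3.86 CPM in GC, 0.367 ± 0.359 CPM in activated and 0.0462 ± 0.0801 CPM in naive cells. Near to Ehf were Anxa2 (0.96) and Gm12678 (0.95). Those of Tox were Rtn4ip1 (0.97), Mns1 (0.96) and Cpsf2 (0.95), those of Nuggc Rpf1 (0.97), Msh3 (0.96) and Cpsf2 (0.95), and those of Nxpe2 Fam111a, Il17ra and Celf2 (0.98 each). Not all of these are near 0 outside GC cells, and Fam111a was at 289 ± 14.5 CPM in GC, 104 ± 14.7 CPM in activated and 300 ± 43.3 CPM in naive cells. Among the 6 genes r ran from 0.46 for Pipox with Nxpe2 to 0.93 for Tox with Nuggc. All these values come from the same 15 libraries and share their letters and depths.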

How the data were processed

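Poly(A) RNA was sequenced with a strand-aware kit, per the labels' protocols. Reads were aligned with STAR 2.7.10a and counted per gene with featureCounts 2.0.6 on mm10/GRCm38, per the submitters' processing notes, which also name DESeq2. The handling of strand and of reads with several matches is not given in the sources used here. The authors deposited unnormalised counts for 54838 Ensembl IDs, and 54809 of these were named from GENCODE M21. Groups came from the sample titles.

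Counts were scaled with TMM. Tests used edgeR 4.0.16 under R 4.3.3 (filterByExpr, 17144 genes, robust glmQLFit on all 15 libraries with 1 mean per group, two-sided glmQLFTest, Benjamini-Hochberg adjustment over all genes tested, threshold 0.05). Letters were compared among the 9 activated libraries with a term for stimulus (15727 genes). DESeq2 1.42.0, another scaling, no filter, fewer libraries and a replicate block were alternatives. Same-letter libraries deviated together among the activated groups (9 correlations, 0.362 to 0.495), which pairs those, and not between GC or naive and other groups (-0.0696 to 0.0752). GC shares and correlations (log2 CPM, prior count 2) are descriptions. Where a group had no count, a fold is a bound against 3 counts over the group, and with 1 to 3 counts an exact Poisson interval is given. The fit was tested on simulated data.

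The 6 genes and all lists were chosen with earlier results of these data known. Named were, whatever their values, the 6 genes, the NXPE family, Tox3, Tox4, Elf3 and Elf5. Of each list the 4 largest changes called at 2-fold or more between GC and naive cells were named, and for each of the 6 genes the 3 genes with the highest correlation and the nearest genes on the chromosome. Some genes that these rules name are not reported here. Supt5 was named after its value was seen.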

Additional observations from a re-analysis of the deposited data

How the results depend on the processing

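Of 118 alternative values for the counts of calls, 109 stayed within 1.5 times the main count. Uncalled differences between stimuli changed sign under several alternatives, as for Nuggc in LPS against CD40 (log2 fold change -1.23, and 2.67 without CD40 C) and Ehf in LPS against CpG (0.52, and -6.22 without LPS B, a fitted size that is no bound). The fits without CD40 C and without LPS B had no replicate block, and each left 1 letter without 1 stimulus. The counts of related genes lower in GC were the least stable. With only the libraries of the groups compared, 9 were lower against naive cells and 32 lower against activated cells, and with naive C as the only naive library, an alternative added after the data were seen, 15 were lower against naive cells. Leaving out 1 library at a time gave 25 to 31 higher and 8 to 24 lower against naive cells, with 8, 10 and 12 lower without GC A, GC B and GC C. Against activated cells it gave 29 to 37 higher and 13 to 30 lower, with 13 lower without GC A. The cause was not tested. Between stimuli, calls for the 6 genes stayed at 0 (0 to 0). Between letters, DESeq2 gave 2 calls in place of 4, and leaving out 1 library gave 2 to 5, with 2 without LPS B. With the letter as a replicate block the related counts were 28 higher and 21 lower against naive cells and 33 higher and 20 lower against activated cells, calls between stimuli were 0, and no other call of these counts moved by over 1.5 times.

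No GC share moved by more than 1 SD of the shares taken by letter. Those shares join libraries of the same letter, although letters did not pair GC or naive with other groups. For Nxpe2 that SD is wide, at 14.1 percentage points, and leaving out 1 library gave shares of 55.8 to 71.2%. With naive C alone the share of Nxpe2 was 50.8%. The genes nearest in pattern depended on the setting: with a prior count of 0.5, all 3 remained for Ehf, 2 for Tox2, 1 each for Tox, Nxpe2 and Nuggc and 0 for Pipox, and with Spearman's correlation 2 remained for Tox2 and 0 for the others.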

Other observations

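The genes next to the 6 on their chromosomes mostly had another pattern. Elp3 lies 5471 bases from Nuggc and stood at 73.2 ± 6.76 CPM in GC, 76.4 ± 6.68 CPM in activated and 53.1 ± 21.2 CPM in naive cells, while Scara5 on the other side had no count in any library. Myo18a beside Pipox was at 56.4 ± 5.13 CPM in GC, 39.3 ± 12.7 CPM in activated and 121 ± 15.5 CPM in naive cells, and Sez6 on its other side had no count. Apip beside Ehf was at 27.9 ± 4.10, 21.7 ± 4.39 and 9.99 ± 2.25 CPM in GC, activated and naive cells. Nsmaf beside Tox was at 267 ± 26.6 CPM in GC and 138 ± 36.1 CPM in naive cells, with 80.1 to 107 CPM over the activated libraries, and Car8 on its other side had no count. Both neighbours of Tox2 were at or near 0, with Gtsf1l at no count and Jph2 at up to 0.218 CPM in GC. Cadm1, an adhesion gene beside Nxpe2, was at 3.92 ± 0.323 CPM in GC, 0.131 ± 0.197 CPM in activated and 0.368 ± 0.319 CPM in naive cells, and Rexo2 on the other side at 98.9 ± 9.64, 76.8 ± 36.0 and 36.8 ± 1.44 CPM.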
